A study of Homo sapiens with 12 samples.

Results

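The proteasome genes of A549 cells, an epithelial line from a human lung carcinoma, were followed through a time course with TGFβ. The members were the protein-coding rows whose symbol begins with PSMA to PSMG and a digit, plus POMP and ADRM1, and 50 of the 15871 protein-coding genes met that rule. By role they were 14 standard subunits of the core particle, 3 immunoproteasome catalytic subunits, 18 subunits of the regulatory particle, 8 assembly factors, 5 alternative activators and inhibitors, and 2 genes that share only the letters of the name (PSMC3IP and PSME3IP1). Treated cells had received TGFβ at 4 ng/mL for 0.5, 12, 24, 48 or 96 h, and their reference was the same line at 0 h. All groups were of this cell line without any genetic change named in the labels, and all cells were sorted singly as propidium iodide negative. Each time had 2 CEL-Seq2 libraries of 384 wells, in which each captured mRNA 3′ end is counted through a unique molecular identifier (UMI).

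The proteasome degrades proteins that carry ubiquitin chains. Its core particle is a stack of alpha rings and beta rings, and the beta rings hold the protease sites. The regulatory particle caps the core. Its non-ATPase subunits bind the substrate and remove the ubiquitin, and its ring of ATPases unfolds the protein and feeds it into the core. Interferon can exchange the standard catalytic subunits PSMB5, PSMB6 and PSMB7 for PSMB8, PSMB9 and PSMB10, which makes the immunoproteasome and alters the peptides offered to T cells. Dedicated chaperones assemble the rings, and other caps can take the place of the regulatory particle.

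Limits on UMIs, detected genes and mitochondrial share left 1871 cells of 4608 wells, with 54 and 64 cells at 96 h and 131 to 217 in each earlier library. Summed protein-coding counts were 1264044 and 1501661 UMIs at 96 h, the smallest sums of the series, and reached 4500036 at 24 h. Replicate 2 of 48 h had the lowest median of UMIs per cell, 14137, against 15789 to 28045 in the other libraries. The median mitochondrial share of kept cells was 20.6% and 21.1% at 96 h, against 25.01% and 23.6% at 0 h, and its part in the results was not tested. Known targets of TGFβ moved. Of 10 genes on a list of them, 9 rose at 96 h, and CDH1, the epithelial cadherin, fell by 5.57 on the log2 scale. Epithelial markers summed to 4240 to 8250 CPM (each library's UMI counts divided by its TMM-scaled sum, in parts per 10 to the power 6) per library. At 96 h, KRT7 made up 3235 and 3133 CPM of sums of 4278 and 4240 CPM. Of the 6 tested epithelial markers, 4 were lower and 0 higher at 96 h, where 11.1% of all genes were lower. Immune markers summed to 0.229 to 9.85 CPM, with PTPRC and MS4A1 at 0 and CD14 at 0.778 and 0 CPM at 96 h, against 7.12 and 9.27 CPM at 0 h, fibroblast markers to 0.274 to 7.001 CPM and endothelial markers to 0 to 0.666 CPM. LUM, the 1 tested fibroblast marker, was higher at 96 h, with 5 and 3 UMIs against 1 and 0 at 0 h. The labels do not say whether the 2 libraries of a time came from separate cultures, so p-values measure the spread between these libraries, which may be technical. Replicate number and barcode set cannot be told apart, since each number used its own set. In sums over cells, fewer cells with a transcript and less transcript per cell cannot be told apart. No untreated cells were taken after 0 h, so time with TGFβ and time in culture cannot be told apart either.

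A single regulatory subunit, PSMD2, rose over the time course with TGFβ, while 13 of the other 45 tested members fell by 96 h. Of the 46 members with enough counts for a test, 1 was higher and 13 were lower at 96 h than at 0 h by the quasi-likelihood test of edgeR, adjusted after Benjamini and Hochberg at 0.05. Among all 10465 genes tested, 12.5% were higher and 11.1% lower in that comparison. The median log2 change was -0.31 over the 46 members and 0.02 over all genes. Both 96 h libraries lay below both 0 h libraries for 32 members, against 29.2% of all genes, and above them for 5 members, against 31.6% of all genes. Summed over the 50 members, the level was 7890 ± 16.7 CPM at 96 h and 9463 ± 377 CPM at 0 h (SD, n = 2 each).

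**Figure D1:**
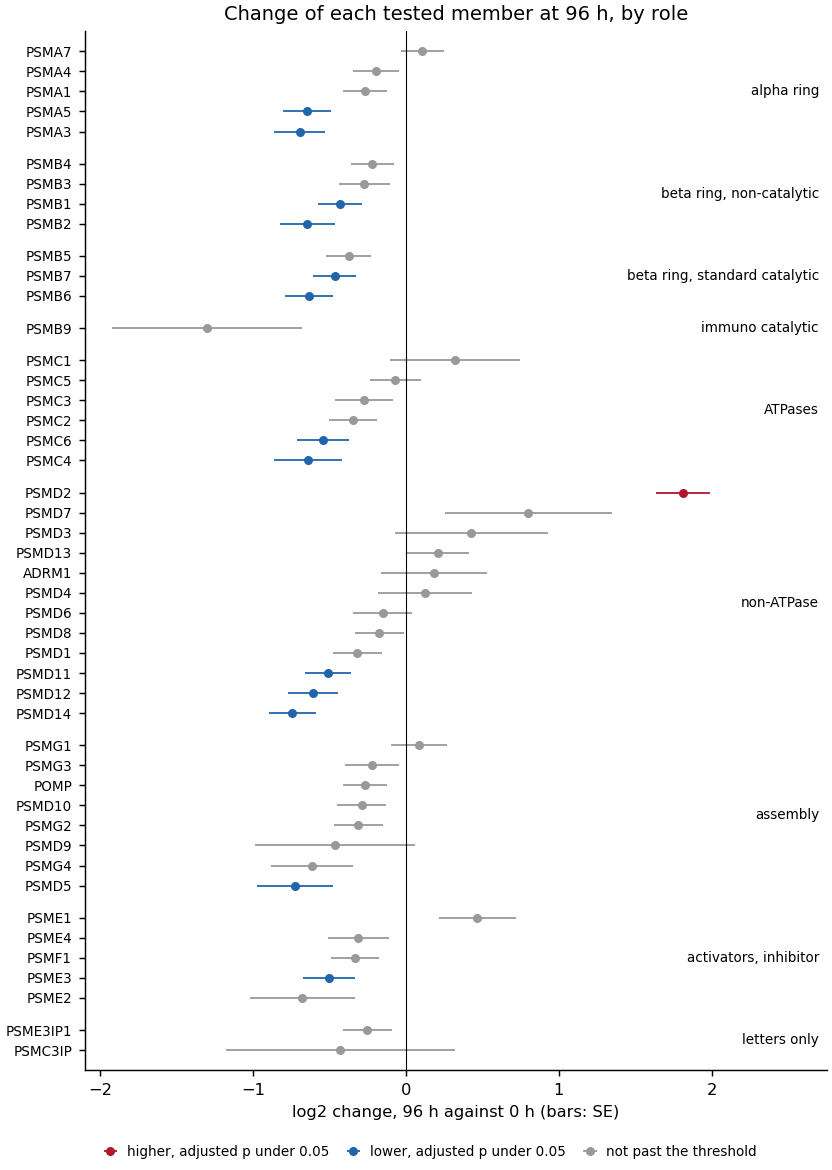
The log2 change at 96 h against 0 h (horizontal axis, with its SE) of each of the 46 tested members, grouped by role. PSMD2 stands alone at 1.81, 13 members in blue are lower past the threshold, and the grey members did not pass it.

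The number of lower calls depended on the libraries and cells used. Without replicate 1 of 0 h the count of calls was 4 (PSMD2 higher; PSMA5, PSMD11 and PSMD14 lower), and without either 96 h library it was 5. In such a fit the time left with 1 library is assumed to vary like the other times. The median log2 change of the tested members was -0.29 without replicate 1 of 0 h, -0.35 without replicate 1 of 96 h and -0.32 without replicate 2 of 96 h, against -0.31 with all libraries. PSMA5 and PSMD14 were lower in every fit that left out 1 library. Stricter limits on cells kept 206 cells, with 7 and 13 in the 0 h libraries and 25 and 17 in those of 96 h. With them PSMD2 was the single call at 96 h, and the median log2 change of the 40 members still tested was -0.23. With the replicate number as a block in the fit, 16 members were called, with PSMD7 higher and PSMB5 lower in addition to the 14.

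PSMD2 encodes a large scaffold of the regulatory particle that docks shuttle proteins carrying ubiquitinated cargo. The gene lies at chr3:184299198-184309050 on the plus strand in GENCODE 44 on GRCh38 and has 21 exons in its canonical transcript. The 300 bases around its start in RefSeq (GRCh38.p14), shown because its mRNA moved apart from its partners, hold 3 GC boxes. For comparison, PSMD14 (12 exons, chr2:161308425-161411717) had the lowest adjusted p of the members that fell at 96 h, and PSMB9 (chr6:32844136-32859851) was the single immunoproteasome subunit with enough counts for a test. The PSMB9 window lies inside the GENCODE span of that gene, because RefSeq places its start further downstream. Capitals mark, on either strand, the CCAAT box with those letters, the GC box spelled GGGCGG, and the antioxidant response element core spelled TGACNNNGC.
PSMD2, chr3:184298991-184299290, plus strand: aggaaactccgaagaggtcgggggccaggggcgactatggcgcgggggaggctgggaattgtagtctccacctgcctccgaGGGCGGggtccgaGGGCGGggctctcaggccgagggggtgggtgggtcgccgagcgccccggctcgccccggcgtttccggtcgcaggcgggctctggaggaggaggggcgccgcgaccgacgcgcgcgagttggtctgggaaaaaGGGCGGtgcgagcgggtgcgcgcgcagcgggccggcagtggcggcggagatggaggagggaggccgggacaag
PSMD14, chr2:161308175-161308474, plus strand: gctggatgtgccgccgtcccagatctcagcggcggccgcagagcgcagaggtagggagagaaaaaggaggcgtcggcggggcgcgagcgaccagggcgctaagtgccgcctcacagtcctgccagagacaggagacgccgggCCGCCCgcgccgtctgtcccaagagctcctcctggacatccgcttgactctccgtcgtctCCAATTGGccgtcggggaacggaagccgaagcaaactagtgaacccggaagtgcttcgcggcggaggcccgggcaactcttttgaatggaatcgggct
PSMB9, chr6:32853942-32854241, plus strand: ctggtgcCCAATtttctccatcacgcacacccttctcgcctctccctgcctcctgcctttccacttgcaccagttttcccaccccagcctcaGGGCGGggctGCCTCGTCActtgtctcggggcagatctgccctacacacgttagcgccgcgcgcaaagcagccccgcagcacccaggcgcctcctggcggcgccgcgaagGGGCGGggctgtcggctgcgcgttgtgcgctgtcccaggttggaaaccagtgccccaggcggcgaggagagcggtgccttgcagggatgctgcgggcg

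PSMD2 had 89.0 and 113 CPM before TGFβ and, with it, 116 and 87.9 after 0.5 h, 125 and 154 by 12 h, 178 and 216 by 24 h, 244 and 256 on reaching 48 h and 327 and 382 after 96 h, replicate 1 before replicate 2 at each time. Both libraries of 12 h and of every later time lay above all 4 libraries of 0 and 0.5 h, and the time means increased at each step from 12 h on. Against 0 h its log2 change was 0.96 ± 0.17 (SE, adjusted p = 0.000255) at 24 h, 1.31 ± 0.17 (SE, adjusted p = 3.54e-06) at 48 h and 1.81 ± 0.18 (SE, adjusted p = 2.46e-08) at 96 h in edgeR's quasi-likelihood test. At 12 h it was 0.46 ± 0.17 (SE, adjusted p = 0.0761), which did not pass without the replicate block and passed with it. At 96 h, 497 of the 10465 genes had a larger log2 change. Within replicate numbers the log2 change at 96 h was 1.88 for replicate 1 and 1.76 for replicate 2, and it lay between 1.64 and 1.96 when any 1 library was left out. It was 1.78 with the stricter limits on cells, which left 7 and 13 cells in the 0 h libraries.

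PSMD1, the related scaffold that docks the ubiquitin receptor ADRM1, is a partner of PSMD2 in the regulatory particle. It had 249 and 221 CPM before TGFβ and, with it, 214 and 283 after 0.5 h, 235 and 209 by 12 h, 245 and 221 by 24 h, 216 and 204 on reaching 48 h and 198 and 179 after 96 h. Both 96 h libraries were below both 0 h libraries, and the log2 change of -0.32 ± 0.16 (SE, adjusted p = 0.163) did not pass. The ratio of the PSMD2 level to the PSMD1 level was 1.65 and 2.13 at 96 h, against 0.357 and 0.512 at 0 h. The counted level of PSMD2 was thus below that of PSMD1 in the 0 h libraries and above it in the 96 h libraries. The counts are of captured 3′ ends, and whether the mRNAs of both genes are captured alike was not tested.

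**Figure D2:**
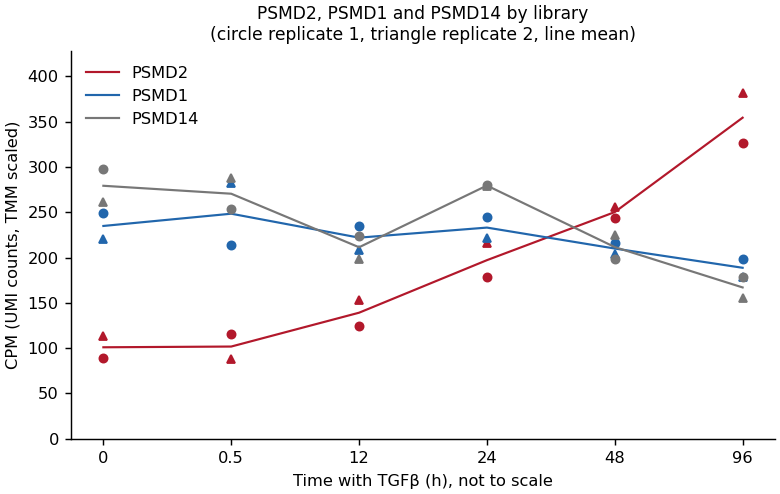
CPM (vertical axis) of PSMD2, PSMD1 and PSMD14 in each library by time with TGFβ (horizontal axis, times evenly spaced), circles for replicate 1 and triangles for replicate 2, with lines through the means. PSMD2 lies below the other genes at 0 h and above them at 96 h, at 327 and 382 CPM.

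The difference was also present per cell. After each cell was thinned to 12000 UMIs, PSMD2 was detected in 96.1% (exact 95% interval 86.5% to 99.5%) and 95.2% (86.7% to 99.0%) of 51 and 63 cells at 96 h, against 62.1% (54.6% to 69.3%) and 74.7% (67.2% to 81.3%) of 177 and 158 cells at 0 h. Unthinned, PSMD2 was found in 96.3% of cells and in all 64 cells of the 2 libraries of 96 h, against 77.9% and 89.2% at 0 h. Wells with under 1000 detected genes, taken as background, had PSMD2 in 19.3% and 5.47% at 96 h, against 4.65% and 10.8% at 0 h, with a median of 975 UMIs against 21419 in kept cells. Intervals cover counting error only. For PSMD1 the thinned share was 78.4% and 79.4% at 96 h, against 90.4% and 91.8% at 0 h.

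Among the neighbouring genes with enough counts to judge, none gave a like value. EIF4G1, a translation initiation scaffold downstream of PSMD2, had a log2 change of 0.21 ± 0.18 at 96 h (adjusted p = 0.465). EEF1AKMT4, upstream, fell by 1.36 ± 0.31 on the log2 scale (adjusted p = 0.00232). ALG3 (-0.73 ± 0.31, adjusted p = 0.111) and POLR2H (0.03 ± 0.27, adjusted p = 0.951) did not pass. FAM131A, at 0.12 ± 0.81, had a SE too large to judge. VWA5B2, CAMK2N2 and CLCN2 had too few counts for a test, and other annotated neighbours were absent from the counts.

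In the core particle no subunit rose. Of 12 tested standard subunits, 6 fell at 96 h, 11 had a log2 change below 0, and the median was -0.40. Among all genes tested, 12.5% were higher and 11.1% lower in that comparison. The summed level of the class was 4026 ± 22.1 CPM at 96 h and 5084 ± 436 CPM at 0 h (SD, n = 2 each), and the 0 h libraries differed from each other, at 5392 and 4776 CPM.

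In the alpha rings, which gate the entry to the core, PSMA3 and PSMA5 fell. PSMA3 had 482 and 358 CPM before TGFβ and, with it, 355 and 410.2 after 0.5 h, 420.1 and 332 by 12 h, 367 and 344 by 24 h, 318 and 297 on reaching 48 h and 259.8 and 259.6 after 96 h. The 0 h libraries were far apart, and both 96 h libraries were below all others. Its log2 change at 96 h was -0.69 ± 0.17 (SE, adjusted p = 0.00296). PSMA5 had 330.5 and 287 CPM before TGFβ and, with it, 277 and 311 after 0.5 h, 305 and 253 by 12 h, 287 and 266 by 24 h, 276 and 238 on reaching 48 h and 201 and 193 after 96 h. Again the 96 h libraries were the lowest of the 12, with a log2 change of -0.65 ± 0.15 (SE, adjusted p = 0.00323). PSMA7, the member with the highest CPM, had 853 and 848 CPM at 96 h, against 832 and 748 CPM at 0 h. Its log2 change of 0.11 ± 0.14 (SE, adjusted p = 0.645) did not pass. PSMA1 and PSMA4 were at -0.27 and -0.20 and did not pass.

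Among the beta subunits without a protease site, PSMB2 fell by 0.64 ± 0.18 on the log2 scale (adjusted p = 0.00972), with 229 and 215 CPM at 96 h, against 389 and 305 CPM at 0 h. PSMB1 fell by 0.43 ± 0.14 (adjusted p = 0.0308), with 262 and 259.6 CPM at 96 h, against 359 and 345 CPM at 0 h. In both genes the 96 h libraries lay below the 0 h libraries. PSMB3 and PSMB4 were at -0.27 and -0.22 and did not pass.

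Of the 3 standard catalytic subunits, 2 fell at 96 h, where 11.1% of all genes were lower. PSMB6, the caspase-like site, had 676 and 572 CPM before TGFβ and, with it, 568 and 590.0 after 0.5 h, 593 and 508 by 12 h, 564 and 519 by 24 h, 589 and 474 on reaching 48 h and 394 and 411 after 96 h. The 96 h libraries were the lowest of the 12, and the log2 change was -0.63 ± 0.15 (SE, adjusted p = 0.00381). PSMB7, the trypsin-like site, had 389 and 364 CPM before TGFβ and, with it, 322 and 352 after 0.5 h, 302 and 312 by 12 h, 329 and 369 by 24 h, 339 and 314 on reaching 48 h and 271 and 274 after 96 h. It too was lowest at 96 h, with a log2 change of -0.47 ± 0.14 (SE, adjusted p = 0.019). PSMB5, the chymotrypsin-like site, had 383 and 348 CPM before TGFβ and, with it, 408 and 337 after 0.5 h, 281 and 284 by 12 h, 337 and 315 by 24 h, 299.6 and 303 on reaching 48 h and 292 and 272 after 96 h. All 8 libraries from 12 h on were below the 4 libraries of 0 and 0.5 h. Its change at 96 h, -0.37 ± 0.15 (SE, adjusted p = 0.0668), did not pass without the replicate block, while the mean of 12 to 96 h against the mean of 0 and 0.5 h did, at -0.31 ± 0.09 (SE, adjusted p = 0.00751).

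The counts of the immunoproteasome subunits were near the limit of detection. PSMB9, which replaces PSMB6, had 16 and 22 UMIs before TGFβ, 26 and 21 after 0.5 h, 10 and 13 by 12 h, 7 and 4 by 24 h, 9 and 13 on reaching 48 h and 3 and 3 after 96 h. In CPM this was 4.38 and 6.37 CPM before TGFβ and, with it, 7.81 and 5.33 after 0.5 h, 2.55 and 3.42 by 12 h, 1.61 and 1.48 by 24 h, 3.01 and 6.71 on reaching 48 h and 2.33 and 1.997 after 96 h. Replicate 2 of 48 h, at 6.71 CPM, overlapped the early libraries, and the other 7 libraries from 12 h on were below all 4 early ones. PSMB9 fell at 24 h by 1.76 ± 0.52 on the log2 scale (adjusted p = 0.0243), a call lost with DESeq2, with thinned library sums, with the stricter limits on cells, and without 0 h replicate 2 or either 24 h library. The mean of 12 to 96 h was lower than that of 0 and 0.5 h, at -1.17 ± 0.30 (SE, adjusted p = 0.00367). At 96 h the log2 change of -1.30 ± 0.62 (SE, adjusted p = 0.14) did not pass. After thinning, PSMB9 was detected in 1.96% (exact 95% interval 0.0496% to 10.4%) and 0% of cells at 96 h, against 6.21% (3.14% to 10.8%) and 6.33% (3.08% to 11.3%) at 0 h. The 0 of 63 cells allows a share of up to 5.69% by the same exact interval. Background wells held it in 0% to 0.775%.

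PSMB8 and PSMB10 had 0 to 8 and 0 to 3 UMIs per library and were not tested. PSMB8 had 0 and 3 UMIs at 96 h and 6 and 4 at 0 h, and PSMB10 had 1 and 0 at 96 h and 1 and 1 at 0 h. At these counts a change was not detectable. To compare each immuno subunit with the subunit it replaces, the log2 ratio of counts was taken per library over the 8 libraries of 12 to 96 h and the 4 of 0 and 0.5 h. The ratio of PSMB9 to PSMB6 averaged -7.48 ± 0.72 at 12 to 96 h and -6.65 ± 0.46 at 0 and 0.5 h (SD), a difference of -0.83, with p = 0.0707 in a two-sided exact permutation test and 0.212 after Benjamini-Hochberg adjustment over 3 ratios. For PSMB8, with 26 UMIs over 12 to 96 h and 18 over 0 and 0.5 h, and PSMB10, with 7 and 5, the UMIs were too few for a test of the ratio to show a difference. The smallest p this design allows is 0.00202.

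**Figure D3:**
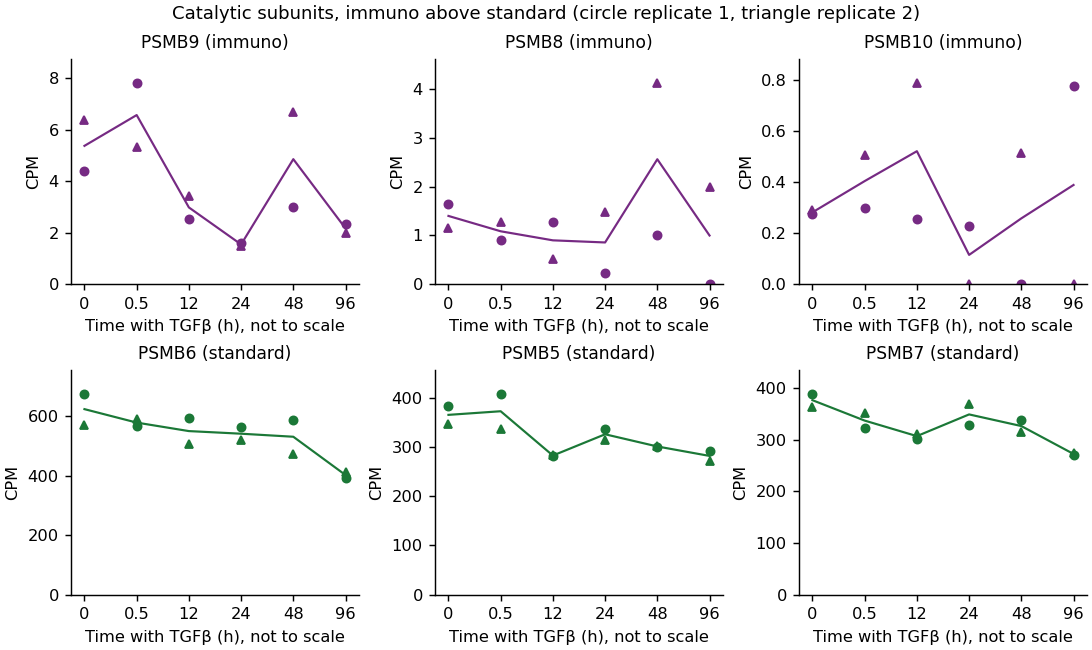
CPM (vertical axes) of the 3 immuno catalytic subunits (upper row) and of the standard subunits they replace (lower row) in each library by time (horizontal axis, evenly spaced), circles for replicate 1, triangles for replicate 2, lines through the means. No point of the upper row exceeds 7.81 CPM, while the lowest point of the lower row is at 271 CPM. The counts of PSMB10 are uncertain, because exons of another gene on the same strand cover its 3′ end.

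The regulatory particle was mixed. Of 18 tested subunits, PSMD2 rose and 5 fell at 96 h, where 12.5% of all genes were higher and 11.1% lower. The median log2 change was -0.16. The class summed to 2437 ± 92.1 CPM at 96 h and 2607 ± 188 CPM at 0 h, and without PSMD2 to 2082 ± 52.9 CPM at 96 h and 2506 ± 172 CPM at 0 h (SD, n = 2 each). The difference between core and regulatory particle was not tested.

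PSMD14, the metalloprotease that removes ubiquitin chains from the substrate, had 297 and 261 CPM before TGFβ and, with it, 253 and 288 after 0.5 h, 224 and 199 by 12 h, 279.6 and 279 by 24 h, 198 and 225 on reaching 48 h and 179 and 155 after 96 h. The 96 h libraries were the lowest of the 12, while both 24 h libraries lay between those of 0 h. The log2 change at 96 h was -0.74 ± 0.15 (SE, adjusted p = 0.000784). The lid subunits PSMD12 and PSMD11 fell as well. PSMD12 had 132 and 109.8 CPM at 96 h, against 195 and 173 CPM at 0 h, a log2 change of -0.61 ± 0.17 (SE, adjusted p = 0.00853). PSMD11 had 214 and 199.7 CPM at 96 h, against 275 and 313 CPM at 0 h, a log2 change of -0.51 ± 0.15 (SE, adjusted p = 0.0147). For both genes the 96 h libraries lay below every other library.

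In the ATPase ring, PSMC4 fell at 12 h and at 96 h. It had 125 and 141 CPM before TGFβ and, with it, 186 and 100.1 after 0.5 h, 91.2 and 77.0 by 12 h, 111 and 120.4 by 24 h, 96.3 and 86.1 on reaching 48 h and 80.9 and 89.2 after 96 h. Replicate 1 of 0.5 h was the highest library, and all 8 libraries from 12 h on were below both 0 h libraries. The log2 change was -0.66 ± 0.21 (SE, adjusted p = 0.0369) at 12 h and -0.64 ± 0.22 (SE, adjusted p = 0.0421) at 96 h. PSMC6 fell at 96 h, with 122 and 113 CPM at 96 h, against 166 and 176 CPM at 0 h, a log2 change of -0.54 ± 0.17 (SE, adjusted p = 0.0215). PSMC2 had 135 and 129 CPM at 96 h, against 163 and 173 CPM at 0 h, and its log2 change of -0.35 ± 0.16 (SE, adjusted p = 0.121) did not pass, while the mean of 12 to 96 h against the mean of 0 and 0.5 h did, at -0.27 ± 0.09 (SE, adjusted p = 0.0268). PSMC1, PSMC3 and PSMC5 did not pass in any comparison with 0 h.

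The ubiquitin receptors PSMD4 and ADRM1 were not distinguishable from 0 h. PSMD4 had 89.8 and 141 CPM before TGFβ and, with it, 120.5 and 98.0 after 0.5 h, 72.1 and 117 by 12 h, 95.6 and 137 by 24 h, 97.0 and 149 on reaching 48 h and 113 and 138 after 96 h. Replicate 2 was higher than replicate 1 at every time except 0.5 h, so the libraries of 96 h and 0 h overlapped, with a log2 change of 0.12 ± 0.31 (SE, adjusted p = 0.825). ADRM1 had 26.6 and 41.7 CPM before TGFβ and, with it, 44.2 and 28.7 after 0.5 h, 29.8 and 36.0 by 12 h, 28.9 and 43.7 by 24 h, 34.1 and 53.1 on reaching 48 h and 26.4 and 49.9 after 96 h, also overlapping, with a log2 change of 0.18 ± 0.34 (SE, adjusted p = 0.759). PSMD7, a lid subunit whose last exonic bases overlap a gene on the opposite strand, had 81.7 and 101 CPM at 96 h, against 40.0 and 65.4 CPM at 0 h, and its log2 change of 0.80 ± 0.54 (SE, adjusted p = 0.359) did not pass although the libraries did not overlap, and a fit with the replicate block called it higher. Its largest value, 135 CPM, was in replicate 2 of 48 h, against 52.5 CPM in replicate 1.

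Of the 8 assembly factors, 1 fell at 96 h, where 11.1% of all genes were lower. A log2 change below 0 was found for 7 of them, with a median of -0.30. PSMD5, a chaperone of the ATPase ring base, had 96.9 and 54.7 CPM before TGFβ and, with it, 65.8 and 69.8 after 0.5 h, 79.7 and 61.5 by 12 h, 69.5 and 58.2 by 24 h, 73.2 and 53.6 on reaching 48 h and 47.4 and 44.6 after 96 h. The 0 h libraries were far apart, the 96 h libraries were the lowest of the 12, and the log2 change at 96 h was -0.72 ± 0.25 (SE, adjusted p = 0.0385). Without replicate 1 of 0 h it was -0.26 and did not pass, and without replicate 2 of 0 h it was -1.11. PSMG4, a chaperone of the alpha rings, had 29.6 and 27.5 CPM before TGFβ and, with it, 30.0 and 26.7 after 0.5 h, 14.0 and 19.2 by 12 h, 16.3 and 24.1 by 24 h, 20.1 and 18.6 on reaching 48 h and 17.9 and 19.3 after 96 h. All 8 libraries from 12 h on lay below the 4 libraries of 0 and 0.5 h. It fell at 12 h by 0.78 ± 0.23 on the log2 scale (adjusted p = 0.0212) and over 12 to 96 h by 0.61 ± 0.14 (adjusted p = 0.00165). POMP, which guides the beta rings during maturation, had the highest CPM of these factors. It had 542 and 462 CPM before TGFβ and, with it, 460.2 and 466 after 0.5 h, 415 and 418 by 12 h, 461 and 517 by 24 h, 434 and 416 on reaching 48 h and 424 and 409 after 96 h. Its log2 change at 96 h, -0.27 ± 0.14 (SE, adjusted p = 0.191), did not pass. PSMG1, PSMG2, PSMG3, PSMD9 and PSMD10 did not pass in any comparison with 0 h.

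The alternative caps did not move together. PSME3, which forms a nuclear cap, had 343 and 259 CPM before TGFβ and, with it, 327 and 299.9 after 0.5 h, 334 and 277 by 12 h, 314 and 239.8 by 24 h, 246 and 219.7 on reaching 48 h and 208 and 216 after 96 h. The libraries of 48 and 96 h lay below those of 0 h, and the log2 change at 96 h was -0.50 ± 0.17 (SE, adjusted p = 0.0339). Without replicate 1 of 0 h it was -0.30 and did not pass. PSME4, a large cap found in nuclei, had 68.2 and 54.1 CPM before TGFβ and, with it, 50.2 and 67.3 after 0.5 h, 78.2 and 81.2 by 12 h, 67.7 and 74.1 by 24 h, 47.1 and 48.0 on reaching 48 h and 53.7 and 45.3 after 96 h. Both 12 h libraries lay above those of 0 h, both libraries of 48 h and of 96 h lay below them, and it passed the test of any difference among the 6 times (adjusted p = 0.0185) but no comparison with 0 h. PSME1 and PSME2 together form the cap that interferon induces. PSME1 had 19.7 and 25.5 CPM before TGFβ and, with it, 29.4 and 22.6 after 0.5 h, 19.4 and 17.1 by 12 h, 27.5 and 31.9 by 24 h, 28.1 and 40.2 on reaching 48 h and 31.1 and 31.3 after 96 h, with the libraries of 24, 48 and 96 h above those of 0 h, and passed the test of any difference (adjusted p = 0.0413) while its log2 change at 96 h, 0.47 ± 0.25 (SE, adjusted p = 0.196), did not pass. PSME2 had 18.1 and 29.0 CPM before TGFβ and, with it, 22.8 and 20.8 after 0.5 h, 17.8 and 25.7 by 12 h, 28.2 and 43.7 by 24 h, 17.4 and 25.8 on reaching 48 h and 11.7 and 17.3 after 96 h. Its mean was highest at 24 h, the 96 h libraries were the lowest of the 12, and its log2 change at 96 h, -0.68 ± 0.34 (SE, adjusted p = 0.168), did not pass. PSMF1, which binds and can inhibit the core, had 186 and 196 CPM before TGFβ and, with it, 218 and 169 after 0.5 h, 188 and 189.7 by 12 h, 218 and 213 by 24 h, 167 and 191 on reaching 48 h and 152 and 151 after 96 h, with a log2 change of -0.33 ± 0.16 (SE, adjusted p = 0.132) that did not pass. The class summed to 459 ± 2.35 CPM at 96 h and 599 ± 50.2 CPM at 0 h (SD, n = 2 each).

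**Figure D4:**
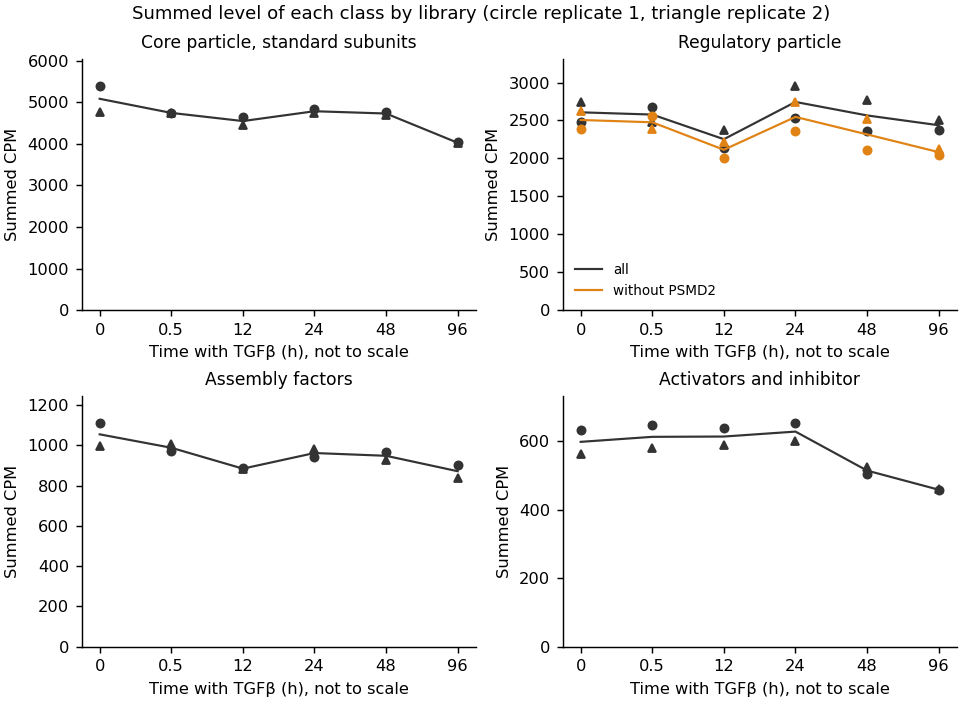
Summed CPM (vertical axes, starting at 0) of the standard core subunits, the regulatory particle with and without PSMD2, the assembly factors and the activators and inhibitor in each library by time (horizontal axis, evenly spaced), circles for replicate 1, triangles for replicate 2, lines through the means. The core sums are 4042 and 4011 CPM at 96 h, below both 0 h libraries at 5392 and 4776 CPM.

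The calls at the earlier times depended on whether the replicate number entered the fit. At 0.5 h no member passed, with 0 members at an unadjusted p under 0.05 and 0 by DESeq2, against 0.44% of all genes called. At 12 h, 0 members were higher and 2 lower (PSMC4 and PSMG4), against 8.46% and 5.83% of all genes, and DESeq2 called 0. No member was called at 12 h without either 0 h library, without replicate 1 of 12 h or with the stricter limits on cells. With the replicate number as a block, 8 were called at 12 h, 1 higher (PSMD2) and 7 lower (PSMC4 and PSMG4 among them). At 24 h, 1 was higher (PSMD2) and 1 lower (PSMB9), against 7.62% and 5.56%. At 48 h, 1 was higher (PSMD2) and 0 lower, against 10% and 8.48% of all genes, and with the block 6 were called, 2 higher (PSMD2 and PSMD7) and 4 lower (PSMA3, PSMC4, PSMD14 and PSME3). The median log2 change of the members was -0.06 after 0.5 h, -0.20 by 12 h, -0.05 by 24 h, -0.12 by 48 h and -0.31 by 96 h. Between successive times, 2 members passed for 12 h against 0.5 h (PSMC4 and PSMG4, both lower), against 12% of all genes. None passed for 24 h against 12 h (0% of all genes; 10 members at an unadjusted p under 0.05), for 48 h against 24 h (5.24% of all genes; 4 members) or for 96 h against 48 h (1.21% of all genes; 11 members), and DESeq2 called 0 members in each. For the mean of 12 to 96 h against the mean of 0 and 0.5 h, 1 member was higher and 11 lower, against 15.6% and 16.1% of all genes. That total of 12 was 7 without replicate 1 of 0 h, 6 without replicate 2 of 0.5 h and 7 without replicate 2 of 96 h. Any difference among the 6 times was found for 11 members, against 28.2% of all genes, for 21 with the block, and for 7 without replicate 1 of 0 h and 4 without either 96 h library. The comparisons with 0 h share the 0 h libraries.

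**Figure D5:**
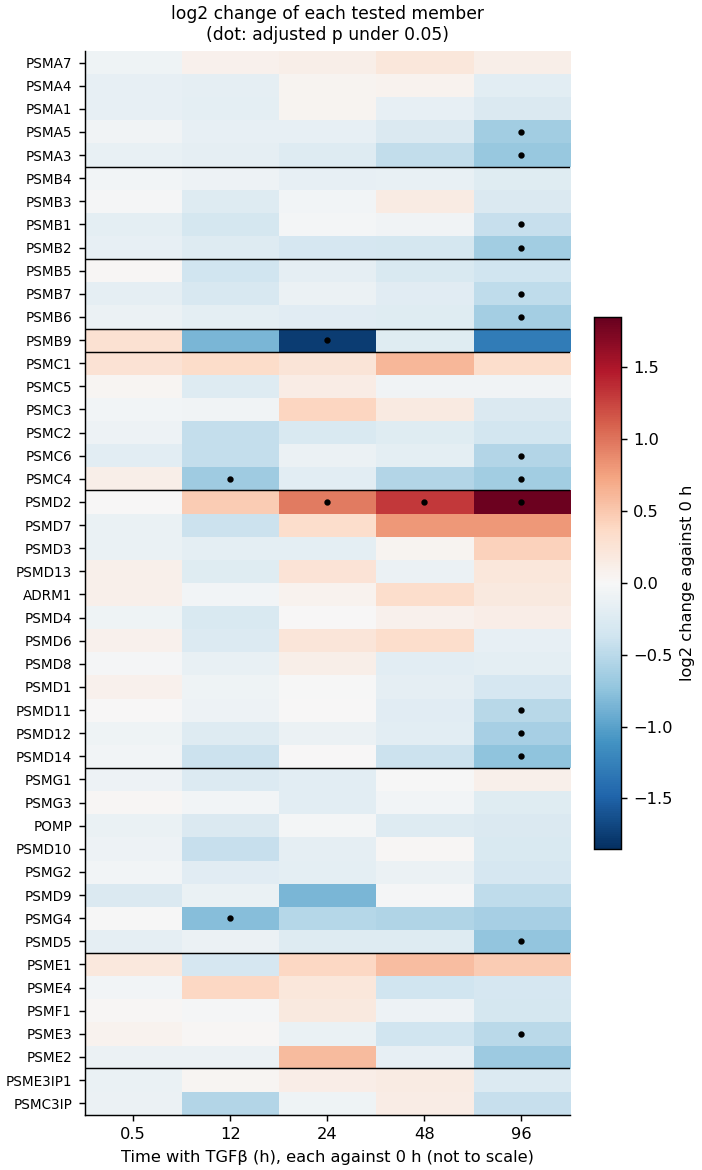
The log2 change against 0 h (colour) of the 46 tested members (vertical axis, ordered by role with lines between roles) at each treated time (horizontal axis, evenly spaced), with a dot where the adjusted p was under 0.05. Most dots are in the 96 h column, and the PSMD2 row carries dots at 24, 48 and 96 h.

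Counted levels within the complex were uneven, and whether the mRNAs of different genes are captured alike was not tested. PSMA7 had the highest CPM of the members at 0 h, with 832 and 748, followed by PSMB6 with 676 and 572 CPM, and their libraries did not overlap. PSMB4 (533 and 477 CPM), POMP (542 and 462 CPM) and PSMA4 (455 and 466 CPM) came next, and POMP overlapped both of the others. In single cells the members together took a median of 0.813% and 0.777% of protein-coding UMIs at 96 h, against 0.924% and 0.958% at 0 h. After thinning to 12000 UMIs, a median of 31 members were detected per cell in both 96 h libraries, against 32 and 33 at 0 h.

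The untested members were 4. PSMA2 (0 to 3 UMIs per library), PSMA6 (1 to 14), PSMB8 and PSMB10 were under the filter. In GENCODE 44, exons of other genes on the same strand cover 100% of the last 500 exonic bases of PSMA2, 96.2% of those of PSMA6 and 100% of those of PSMB10, and none of those of PSMB8. PSMA1, at 43.8%, and PSME2, at 0.2%, were also covered in part, and PSMC1, PSMC3IP, PSMD7, ADRM1 and PSME1 had overlap on the opposite strand, so the counts of these members are uncertain. The other 40 members had no overlap in these bases. PSMC1 also has 13 annotated pseudogenes, PSME2 6 and PSMA6 4, which can share reads. No row carried the symbol PSMA8 or PSMB11, and SEM1, a small regulatory subunit, is outside the naming rule.

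Promoter sequences were found for 44 of the 50 members in RefSeq. On either strand, CCAAT was present in 47.7% of them and in 35.7% of all 27305 promoters of the same length. GGGCGG was present in 68.2%, against 44.6% of all promoters. TGACNNNGC, the core of the element bound by NFE2L1 and NFE2L2, was present in 31.8%, against 13.6%. TTCNNNGAA, the core of the interferon-gamma activated site, was present in 9.09%, against 7.88%. GTCTAGAC, a palindromic SMAD sequence, was present in 0%, against 0.201%, which is too rare for 44 promoters to show a difference. In the PSMD14 promoter printed above, the capitals include a pair of CCAAT matches on opposite strands that overlap each other. These matches describe the letters in the window only.

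Of 14 tested proteasome-bound enzymes and accessory proteins, 0 rose and 3 fell at 96 h, where 12.5% of all genes were higher and 11.1% lower. These were TXNL1, a thioredoxin bound to the regulatory particle (log2 change -0.74 ± 0.16, adjusted p = 0.000934), ZFAND5, an activator of the complex (log2 change -0.50 ± 0.16, adjusted p = 0.0268), and AKIRIN2, which is needed for its nuclear import (log2 change -0.72 ± 0.25, adjusted p = 0.042). SEM1 had 373 and 359.5 CPM at 96 h, against 307 and 323 CPM at 0 h, a log2 change of 0.22 ± 0.17 (SE, adjusted p = 0.391). Of 12 shuttle factors and segregase genes, 1 fell (UBQLN1, log2 change -0.41 ± 0.15, adjusted p = 0.046). The 6 listed transcription factor genes, NFE2L1 and NFE2L2 among them, did not pass at 96 h, with a median log2 change of -0.13.

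Of the 6 ubiquitin and activating enzyme genes, 1 rose at 96 h, where 12.5% of all genes were higher. UBA6, an activating enzyme for ubiquitin and for the ubiquitin-like protein FAT10, had 45.5 and 51.0 CPM before TGFβ and, with it, 45.7 and 54.9 after 0.5 h, 75.1 and 87.7 by 12 h, 76.6 and 96.7 by 24 h, 97.0 and 99.6 on reaching 48 h and 171 and 172 after 96 h. Its libraries from 12 h on were all above those of 0 and 0.5 h, with a log2 change of 0.76 ± 0.17 (SE, adjusted p = 0.00289) at 12 h and 1.83 ± 0.17 (SE, adjusted p = 1.89e-08) at 96 h. In size this was close to the change of PSMD2 at 96 h.

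Some genes of antigen presentation and of the interferon response were taken as the setting of the immunoproteasome. PDIA3, a chaperone of peptide loading, had 250.5 and 226 CPM at 96 h, against 114 and 142 CPM at 0 h, and rose at 96 h (log2 change 0.89 ± 0.18, adjusted p = 0.000559). TAP1, the peptide transporter gene beside PSMB9, had 2 UMIs in all 12 libraries. Of the interferon response genes, ISG15, a ubiquitin-like modifier, had 5.45 and 8.65 CPM at 96 h, against 1.92 and 1.74 CPM at 0 h, and rose (log2 change 1.94 ± 0.59, adjusted p = 0.0192). UBE2L6, the conjugating enzyme for ISG15, had 13.2 and 23.3 CPM at 96 h, against 38.6 and 34.2 CPM at 0 h, and fell (log2 change -0.97 ± 0.27, adjusted p = 0.0109). OAS1, a sensor of double-stranded RNA, had 8.56 and 14.0 CPM at 96 h, against 71.7 and 61.7 CPM at 0 h, and fell (log2 change -2.54 ± 0.43, adjusted p = 0.000589). For each of these 4 tested genes the 96 h libraries did not overlap those of 0 h.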

How the data were processed

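Single A549 cells sorted at 6 times with TGFβ were profiled by CEL-Seq2. The deposited table held raw UMI counts per gene and well, made by the authors, per their processing notes, with UMI-tools, Trim Galore 0.6.7, HISAT2 2.2.1 and featureCounts 2.0.1 on GRCh38. The published methods for the single-cell libraries give different releases of featureCounts and Trim Galore, so these versions are uncertain. Which annotation release and which strand option they used is not given in the sources used here. Wells with 100 to 40000 UMIs, 2000 to 7000 genes and at most 35% mitochondrial UMIs were kept. A single cell was sorted per well and no doublet caller was run. Counts of protein-coding genes, 89.9% of UMIs in kept cells, were summed per library (1264044 to 4500036). Sums were fitted in edgeR 4.0.16 (R 4.3.3; TMM, filterByExpr, robust quasi-likelihood F test) with 6 time means and 6 residual degrees of freedom, with Benjamini-Hochberg adjustment over 10465 genes at 0.05. Standard errors are the absolute log2 change over the square root of F. Immuno to standard ratios (counts plus 0.5) were compared by exact permutation over libraries. Exact intervals of detection shares came from scipy 1.17.1. Scripts were tested on simulated data. Alternatives were DESeq2 1.42.0, its size factors, no mitochondrial genes, no count filter, a replicate block, stricter limits on cells (at least 3000 genes, at most 20% mitochondrial), thinned sums, fewer libraries, and for ratios 5 added counts. Promoters (250 bases before to 50 after the start) came from RefSeq, exon overlaps from GENCODE 44.

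Full values were given for the catalytic subunits, activators, PSMF1, POMP, ADRM1, PSMD4, PSMD14 and the members past the threshold at 12 h, at 96 h or over 12 to 96 h, and up to 4 genes per other list by adjusted p. PSMD1, other members and the neighbours of PSMD2 were named after their values were seen. The members and lists were chosen with earlier results of these data known. Some genes of the antigen presentation and interferon lists are not reported here, so no counts are given for those lists.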

Additional observations from a re-analysis of the deposited data

Results flagged for a closer look

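Among 16 non-coding rows with a proteasome symbol, which entered no comparison, 4 had at least 20 UMIs. PSMC1P9, a processed pseudogene of the ATPase gene PSMC1 with 36 UMIs in all, had 0.918 and 1.11 CPM at 24 h, against 0.821 and 0.579 CPM at 0 h, so that both 24 h libraries lay above both 0 h libraries. It had 0.334 and 4.13 CPM at 48 h and 0.778 and 3.33 CPM at 96 h, which overlapped those of 0 h. In UMIs this was 4 and 3 at 24 h, against 3 and 2 at 0 h, so the difference rests on very few UMIs. The 4 rows were searched at every treated time for both libraries above both 0 h libraries, and only this one was flagged. The difference was not tested.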

How the results depend on the processing

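PSMD2 was called at 96 h under every alternative run (log2 change 1.64 to 1.96). Over the named genes, 925 alternative values stayed on their side of the threshold, 8 passed it newly and 61 no longer passed. A change of direction was counted only for genes past the threshold in either fit, and 0 were found. Genes past it in neither fit may have changed direction among the 925.

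Stricter limits on cells gave 0 members called at 12 h against 0 h, 1 at 24 h, 1 at 96 h, 0 for 12 h against 0.5 h, 4 for the mean of 12 to 96 h and 1 for any difference. DESeq2 called 0 at 12 h, 1 at 24 h and 1 for 12 h against 0.5 h. Thinned sums gave 1 at 12 h, 1 at 24 h, 3 at 48 h and 0 for 12 h against 0.5 h. Without a count filter there were 3 at 48 h, 2 for 48 h against 24 h and 19 for any difference. DESeq2's size factors in edgeR gave 2 at 48 h, as did a fit of only the 0 h and 48 h libraries. The causes were not tested.

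Leaving out 1 library at a time, with the lone library of that time assumed to vary like the others, the calls were 0 to 3 at 12 h, 1 to 2 at 24 h, 1 to 3 at 48 h, 4 to 14 at 96 h, 0 to 2 for 12 h against 0.5 h, 6 to 13 for the mean of 12 to 96 h and 4 to 15 for any difference. Fewest calls came without 0.5 h replicate 2 for the mean of 12 to 96 h (6) and without either 96 h library for any difference (4). The PSMB9 to PSMB6 ratio differed by -1.03 to -0.67, and passed 0.05 without 48 h replicate 2, at -1.03.

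Deviations of same-numbered libraries from their time means correlated at 0.14 to 0.28 in the 6 pairs among 0, 12, 24 and 48 h, and at -0.09 to 0.09 in the other 9 pairs, all with 0.5 or 96 h. The labels do not say that a number marks a shared culture or day, so the pairing is a hint from the data, and the number also stands for the barcode set. With the replicate block, 8 members were called at 12 h, 3 at 24 h, 6 at 48 h, 16 at 96 h, 4 for 12 h against 0.5 h, 2 for 48 h against 24 h, 16 for the mean of 12 to 96 h and 21 for any difference.

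The 96 h libraries held the fewest cells, and PSMB8, PSMB9 and PSMB10 had at most 26 UMIs per library.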
